A study of Mus musculus with 72 samples.

Results

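Ligands of the epidermal growth factor (EGF) family and their ERBB receptors were followed at the RNA level in mouse melanoma lines given gastrin-releasing peptide (GRP). The 10 genes were chosen by symbol and matched to the rows of the count table, which lists 50600 genes. There are 7 ligand genes (Hbegf, Areg, Ereg, Tgfa, Btc, Epgn and Nrg1) and 3 receptor genes (Egfr, Erbb2 and Erbb3). All 10 were found. The rule itself uses no measured value, though the genes were picked with earlier results of these data known. The question is whether stimulation of the GRP receptor (GRPR) is followed by a change in the cells' own EGF-family ligands.

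EGF-family ligands are made as membrane-bound precursors, from which metalloproteinases of the ADAM family release the soluble growth factor. They bind receptor tyrosine kinases of the ERBB family, which act in pairs: Egfr binds Hbegf, Areg, Ereg, Tgfa, Btc and Epgn, Erbb3 binds neuregulins such as Nrg1 and signals through its partners because its own kinase is weak, and Erbb2 has no known ligand and serves as a partner. Receptors coupled to G proteins, the class to which GRPR belongs, can act on Egfr through release of such ligands. In melanocytes, Erbb3 is a receptor of the neural crest lineage.

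The series holds 72 bulk RNA-seq libraries, of 6 lines with 4 treatments and 3 replicates of each. Cells were kept for 18 h in 0.5% serum and were then exposed for 4 h to vehicle (0.1% DMSO, mock), to GRP at 10 nM, to the GRPR antagonist RC-3095 at 1 µM (RC) or to both together (GRP+RC). All 6 lines carry Tyr::NRASQ61K/°, an activated NRAS driven by the tyrosinase promoter. The female lines 1057 and 1064 express their own Grpr and also carry Cdkn2a-/-, Tyr::CreA/° and Cdh1dF/dF, so that E-cadherin is deleted in the pigment lineage. The male line 1181 is labelled Cdkn2a-/- and Cdh1dF/dF without the Cre transgene, and the female line 1014 is labelled with neither. The paper describes 1181 and 1014 as E-cadherin-positive. Each of these was studied with CMV::Grpr/tGFP (1181-Grpr and 1014-Grpr) or with CMV::tGFP (1181-Ctrl and 1014-Ctrl), so the receptor of these versions is driven by a viral promoter. Each line was raised from a melanoma of a transgenic mouse. The study describes its experiments in general as biological replicates, while the labels do not say which libraries were separate cultures, so p-values measure the spread between these libraries.

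Library totals lay between 19512882 and 46862053 counted reads. At that depth the floor of 3 counts was at most 0.154 CPM (counts scaled by library size). Grpr lay between 8.97 and 1170 CPM in the libraries of the 4 GRPR-expressing lines that were used and at no more than 2 counts in the used libraries of 1014-Ctrl and 1181-Ctrl, and Grp was at no more than 3 counts in every library. There were 2 libraries that went against their labels. The library labelled 1014-Ctrl mock replicate 2 had 50.6 CPM of Grpr and 67.7 CPM of the Y-linked Ddx3y, and the library labelled 1181-Grpr GRP+RC replicate 2 had neither at any count. These 2 libraries were left out of all values below, and the fits that keep them as labelled are given as alternatives. The 1181-Grpr libraries also held Xist, at 205 to 272 CPM, beside their Y-linked genes, whereas 1181-Ctrl held at most 0.71 CPM. The 9 melanocyte lineage markers summed to at least 6240 CPM in every mock and GRP library used. Among them, mean Ednrb was 0.03 CPM in 1014-Grpr and 0.34 CPM in 1014-Ctrl, and mean Tyrp1 was 2.18 CPM in 1181-Ctrl. Fibroblast markers summed to at most 33.6 CPM (mock 1064) and endothelial markers to at most 7.89 CPM (mock 1057). Immune markers reached 36.7 CPM and keratinocyte markers 27.6 CPM, both in 1181-Ctrl with GRP. In 1181 the keratinocyte sum was nearly all Cdh1, the gene of E-cadherin. Mean Cdh1 was 22 CPM in 1181-Ctrl and 17.8 CPM in 1181-Grpr. It was 3.66 CPM in 1014-Ctrl, 1.96 CPM in 1014-Grpr, 0.03 CPM in 1064 and 0.01 CPM in 1057. The immune markers summed to 1.2 to 1.66 CPM in mock-treated 1057 and to 5.12 to 5.78 CPM with GRP, of which Cd68 was nearly all, while Cd3e had at most 1 count in that line. In 1014-Grpr they summed to 2.14 to 3.45 CPM in mock and to 4.33 to 8.34 CPM with GRP, and the part of these markers in the results was not tested.

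In resting cells the receptor gene with the highest level was Erbb3 and the ligand genes with the highest levels were Hbegf and Tgfa. Levels of different genes are given in TPM, which scale for transcript length as well as library size, in the mock-treated libraries. Mean Erbb3 was 98.8 ± 1.47 TPM in 1057 (SD, n = 3), 137 ± 64.3 in 1064, 315.7 ± 47.2 in 1014-Grpr, 215 ± 89.1 in 1181-Grpr, 374.6 ± 11.2 in 1014-Ctrl (n = 2) and 322.8 ± 75.3 in 1181-Ctrl. When the lines are ranked by mean, each overlapped with the next in rank. Erbb2 was lower than Erbb3 in every line, by a factor between 6.81 in 1064 and 15.3 in 1014-Grpr. It lay between 7.27 and 7.92 TPM in 1057, below all libraries of the other lines, which lay between 14.2 and 41 TPM. Egfr, the receptor that binds most of these ligands, was at no more than 0.09 TPM in any of these mock libraries.

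The resting ligand RNA was mostly Hbegf and Tgfa. Hbegf was highest in 1057, at 19 to 21.1 TPM, and lowest in 1064, at 5.85 to 8.63 TPM, and these ranges overlapped with no other line. The 4 engineered lines lay between, from 9.62 to 17.5 TPM, and overlapped with each other. Tgfa was highest in 1181-Ctrl, at 33.2 to 41.5 TPM, where it overlapped with 1181-Grpr, and lowest in 1064, at 4.39 to 12 TPM. One library of 1181-Grpr, replicate 1, held 38.6 TPM of Tgfa against 15.1 TPM in the lowest of the other two, and the same replicate held the highest Erbb3 of that line. Btc was at 0.33 to 2.86 TPM in all lines other than 1181-Ctrl, where it was at no more than 4 counts. Areg was found at rest in 1057 alone among the 6 lines, at 3.26 to 4.01 TPM, and Nrg1 had no count in any of these mock libraries.

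**Figure D1:**
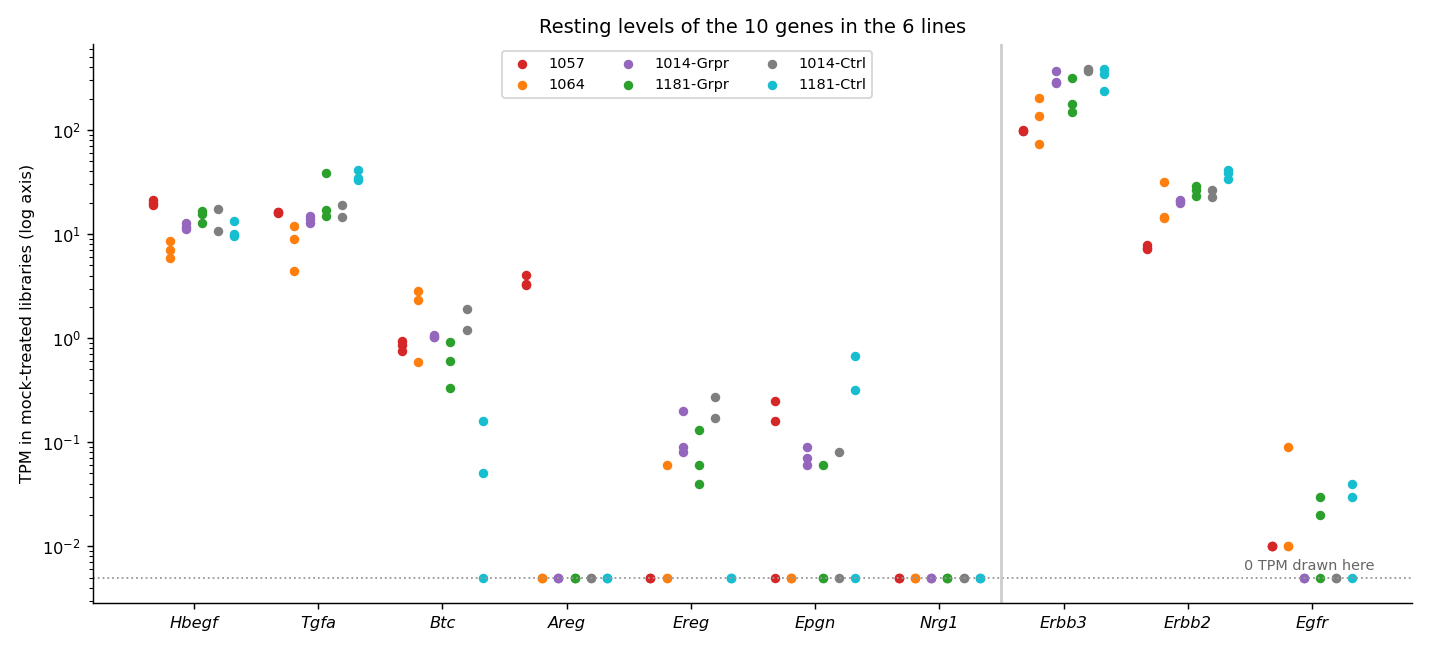
Levels of the 10 genes in each mock-treated library, in TPM on a log axis, with 1 colour per line and values of 0 drawn at the dotted line. Erbb3 stands above Erbb2 in every line, and Egfr is at no more than 0.09 TPM.

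Of the 10 genes, 4 passed the filter on low counts in all 6 lines (Hbegf, Tgfa, Erbb2 and Erbb3), 3 in some lines (Btc in 5, Areg in 1057 only and Ereg in 1014-Grpr only) and 3 in no line (Epgn, Nrg1 and Egfr). A gene that passes the filter only in the line where it is high is likely to differ there, so the counts that follow are descriptions of named genes. Calls were made with edgeR's quasi-likelihood test and required both a log2 change beyond 1 and a p under 0.05 after Benjamini-Hochberg adjustment over every gene tested in the line. With GRP, 3 members were called higher and 1 lower in 1057, where 6.46% of all genes tested were called. In 1064, 1 was called higher and 1 lower, with 2.32% of all genes called. In 1014-Grpr, 3 were called higher and none lower, with 4.01% of all genes called. The median log2 change of the members tested was 0.69, -0.04 and 1.49 in these lines, beside medians of -0.01, -0.02 and -0.02 over all genes. The median of 1014-Grpr rests on few genes and includes Ereg at 3.48, which passed the filter through its GRP libraries. The other members tested there were Btc at 3.68, Hbegf at 2.88, Erbb2 at 0.09, Erbb3 at -0.50 and Tgfa at -0.75.

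Neither a member nor any other gene was called with GRP in 1181-Grpr, 1014-Ctrl or 1181-Ctrl (0% of genes in each, by edgeR and by DESeq2). At an unadjusted p under 0.05 there were 110, 200 and 37 genes in these lines, of which 1, Hbegf in 1181-Grpr, was a member. With replicate numbers as a block, 16 genes were called in 1181-Grpr, none of them a member.

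**Figure D2:**
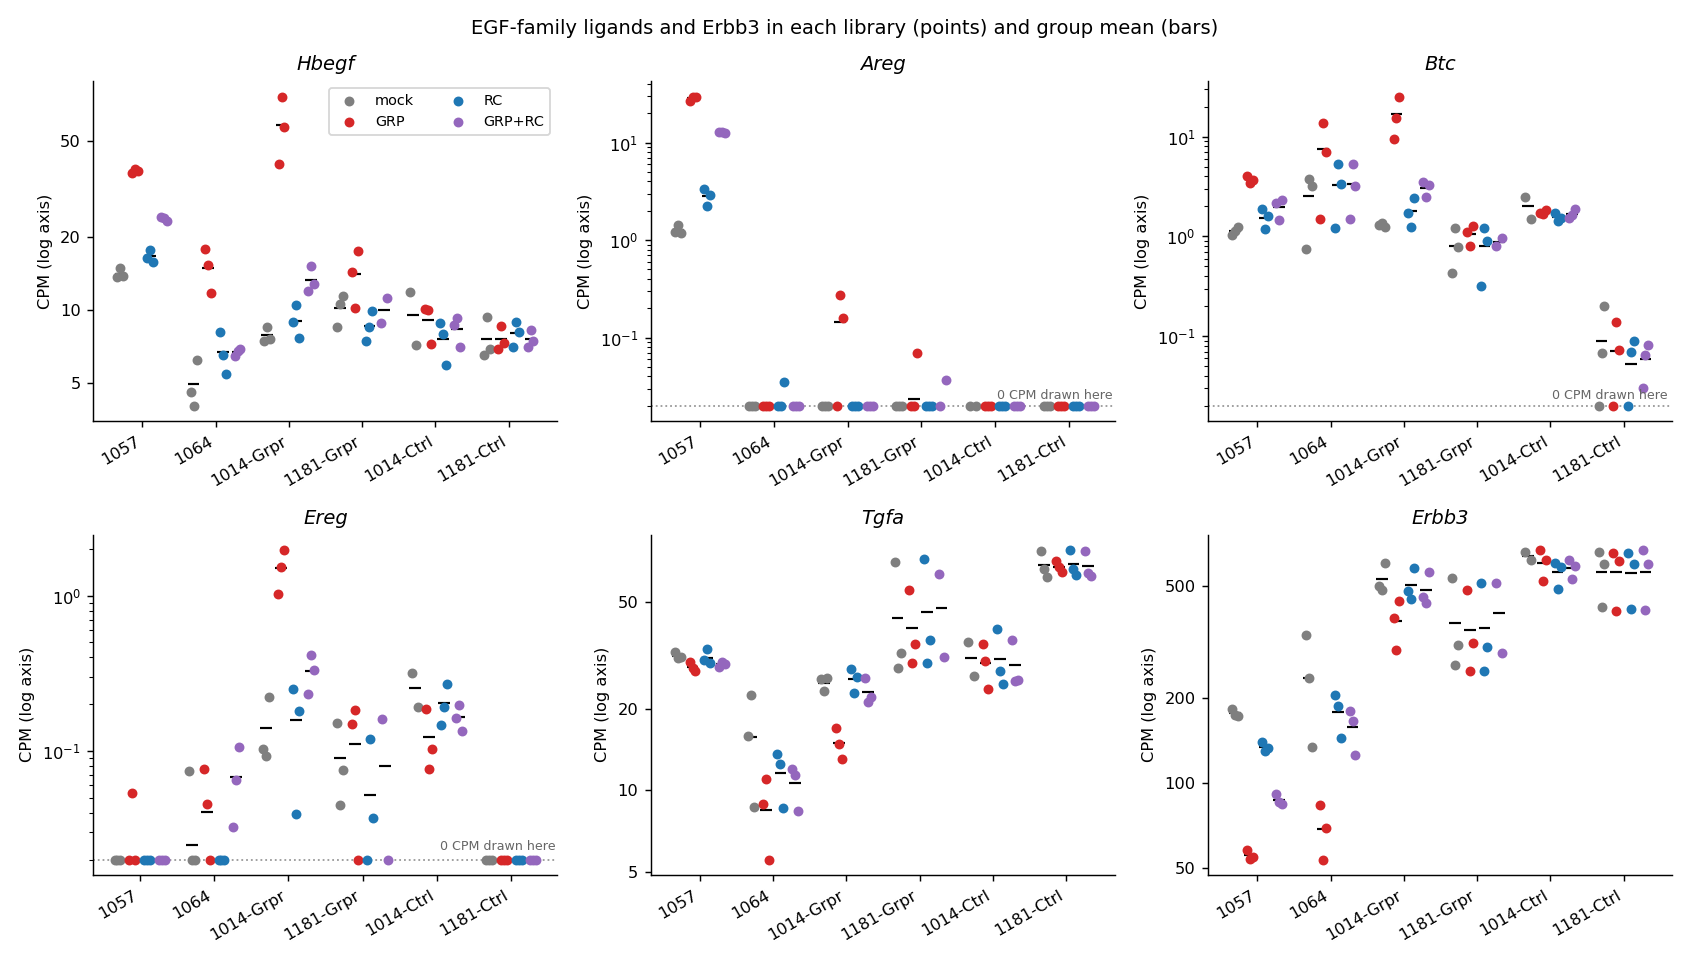
CPM of Hbegf, Areg, Btc, Ereg, Tgfa and Erbb3 in each library used (points, coloured by treatment) with the group mean (bar), on log axes, by line. Hbegf stands higher with GRP than in mock in all libraries of 1057, 1064 and 1014-Grpr, and Erbb3 stands lower in all libraries of the same lines.

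Hbegf encodes heparin-binding EGF-like growth factor, a ligand of Egfr and of Erbb4 (ENSMUSG00000024486, chromosome 18 of GRCm38, 36504927 to 36515805, minus strand). It rose with GRP in 1057, 1064 and 1014-Grpr. In 1057 the mock libraries held 13.7, 14.9 and 13.8 CPM and the GRP libraries 36.9, 38.3 and 37.7 CPM. All GRP libraries stood above all mock libraries, and the log2 fold change was 1.42 ± 0.05 (SE; adjusted p = 5.03e-14, edgeR). In bulk RNA a change in the amount per cell cannot be told apart from a change in the share of cells that make it. In 1014-Grpr, 7.47, 8.53 and 7.56 CPM in mock became 40.3, 76.4 and 57.2 CPM with GRP. The groups again did not overlap, and the log2 fold change of 2.88 ± 0.21 (adjusted p = 2.12e-06) was the largest for Hbegf among the lines. In 1064, mock libraries held 4.58, 4.01 and 6.23 CPM and GRP libraries 17.9, 15.3 and 11.8 CPM. The groups did not overlap and the log2 fold change was 1.60 ± 0.22 (adjusted p = 0.00496). With 1064 replicate 1 or replicate 2 left out, however, no gene of that line was called. Hbegf was then at 1.39 (adjusted p = 0.121) or 1.47 (adjusted p = 0.172), in fits that did not pair libraries by number. With all replicates and their numbers as a block, Hbegf was at 1.56 ± 0.19 (adjusted p = 0.000195) and was called.

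With RC added, Hbegf stood below its level with GRP in every library of the same lines. In 1014-Grpr the GRP+RC libraries held 12, 15.1 and 12.8 CPM, below all GRP libraries (log2 fold change of GRP+RC against GRP -2.13 ± 0.20, adjusted p = 5.63e-05). The means left 10.8% of the rise in place. This share and those below are of mean CPM, and shares on the log2 scale would differ and can rank genes otherwise. In 1057 the GRP+RC libraries held 24.3, 24 and 23.2 CPM, between the mock and the GRP libraries without overlap, and 41.3% of the rise was left. The log2 fold change there was -0.66 ± 0.05 (adjusted p = 9.11e-09), within the limit of 1 and so not called. RC alone gave 16.5, 17.7 and 15.8 CPM in 1057, above all mock libraries (0.24 ± 0.05, adjusted p = 0.00288, also within the limit). In 1064 the GRP+RC libraries held 6.47, 6.75 and 6.92 CPM, below all GRP libraries and above all mock libraries, with 17.7% of the rise left. That difference had a log2 fold change of -1.16 ± 0.22 and an adjusted p of 0.098, and was called with replicate numbers as a block (adjusted p = 0.00323).

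In 1181-Grpr, Hbegf held 8.47, 10.6 and 11.4 CPM in mock and 14.3, 10.2 and 17.5 CPM with GRP. The groups overlapped through replicate 2, in which GRP and mock differed least, and the log2 fold change was 0.47 ± 0.21 (adjusted p = 1; with a block on the replicate number, 0.48 and adjusted p = 0.0271, within the limit of 1). Grpr itself was lower in this line than in the other GRPR-expressing lines, at 19.1, 9.64 and 9.08 CPM in mock against 110 to 143 CPM in mock 1014-Grpr, and its GRP library of replicate 2 had the lowest Grpr of the 3, at 20.3 CPM beside 86.1 and 42.4. The part of the receptor's level in the Hbegf result was not tested. In the receptor-negative lines the log2 fold changes were -0.06 ± 0.23 in 1014-Ctrl and 0.00 ± 0.17 in 1181-Ctrl.

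Areg, the gene of amphiregulin, showed the largest change of any member and only in 1057 passed the filter. Mock libraries of 1057 held 1.2, 1.44 and 1.19 CPM (44, 52 and 43 counts), and GRP libraries held 26.8, 29.2 and 29.6 CPM. The log2 fold change was 4.48 ± 0.11 (adjusted p = 2.27e-16), which is 22.3-fold. RC alone gave 3.31, 2.22 and 2.91 CPM, above all mock libraries, and Areg was the only member called with RC alone (log2 fold change 1.14 ± 0.15, adjusted p = 2.36e-05). Without replicate 1 that value was 0.95 (adjusted p = 0.00122), within the limit of 1. In GRP+RC libraries it held 12.9, 12.7 and 12.5 CPM, between mock and GRP. It fell by 1.17 ± 0.07 on the log2 scale against GRP (adjusted p = 1.94e-09), and 41.8% of the rise was left.

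In the other lines Areg had almost no reads. In 1014-Grpr, the GRP libraries had 0, 8 and 7 counts and the other 9 libraries had 0. It had at most 1 count in 1064, at most 2 in 1181-Grpr and 0 in all used libraries of both receptor-negative lines. The gene was therefore not tested outside 1057 with the filter on low counts, and without that filter it was called in 1014-Grpr as well.

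Areg lies in a cluster of 4 ligand genes on chromosome 5 of GRCm38, within 375.5 kb, in the order Epgn, Ereg, Areg and Btc. Areg (ENSMUSG00000029378, 91139599 to 91148432), Ereg (ENSMUSG00000029377, 91074622 to 91093646) and Epgn (ENSMUSG00000035020, 91027464 to 91035215) are on the plus strand, and Btc (ENSMUSG00000082361, 91357261 to 91402994) is on the minus strand. The gap between Ereg and Areg is 45.95 kb and that between Areg and Btc 208.8 kb. Upstream sequence was found in RefSeq's table (GRCm38.p6) for 6 of the 10 members (Areg, Btc, Epgn, Tgfa, Egfr and Erbb2). The 250 bases before the start site are shown for Areg and Btc, the members of the cluster that rose in 1057, at chr5:91139349-91139598 (plus strand) and chr5:91402995-91403244 (minus strand), read 5′ to 3′ along the gene, with matches to TGACGTCA and TATAAA in capitals.
Areg: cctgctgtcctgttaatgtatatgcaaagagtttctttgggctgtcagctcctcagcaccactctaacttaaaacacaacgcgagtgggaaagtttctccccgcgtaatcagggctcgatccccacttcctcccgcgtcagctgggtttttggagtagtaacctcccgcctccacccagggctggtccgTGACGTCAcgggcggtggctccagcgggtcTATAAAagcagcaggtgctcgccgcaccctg
Btc: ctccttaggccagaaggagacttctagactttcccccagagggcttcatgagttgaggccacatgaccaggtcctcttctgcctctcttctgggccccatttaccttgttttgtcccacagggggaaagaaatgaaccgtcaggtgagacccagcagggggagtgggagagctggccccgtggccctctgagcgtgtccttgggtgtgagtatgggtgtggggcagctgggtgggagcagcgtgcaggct
The motifs searched on both strands were the cAMP response element TGACGTCA, the AP-1 site TGANTCA, the EGR site GCGNGGGCG, the CArG box of serum response factor and TATAAA. Areg held TGACGTCA, starting 61 bases before the start site (position -61), and TATAAA at -31, while Btc held none of the 5. TGACGTCA was found in 1.55% of the 32851 promoters of the same length and TATAAA in 12.4%. The half-site TGACG, which overlaps TGACGTCA and is left in lower case outside it, was also searched. It was found in 17.8% of promoters, among them those of Areg, Btc, Epgn and Erbb2. A match describes these letters and is not evidence of binding.

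Btc encodes betacellulin, a ligand of Egfr and Erbb4. In 1057 it rose from 1.04, 1.14 and 1.24 CPM in mock to 4.08, 3.46 and 3.65 CPM with GRP. The groups did not overlap and the log2 fold change was 1.70 ± 0.18 (adjusted p = 2.79e-07). In 1014-Grpr the rise was larger, from 1.31, 1.36 and 1.25 CPM to 9.51, 15.6 and 25.3 CPM. Every GRP library stood above every mock library, and the log2 fold change was 3.68 ± 0.35 (adjusted p = 1.31e-05). With GRP+RC, 1014-Grpr held 3.48, 2.51 and 3.24 CPM (log2 fold change against GRP -2.46 ± 0.32, adjusted p = 0.000426), which left 11.4% of the rise. In 1057 the GRP+RC libraries held 2.18, 1.44 and 2.34 CPM, below all GRP libraries, at a log2 fold change of -0.91 ± 0.17 (adjusted p = 0.000464), within the limit of 1, with 32.8% of the rise left.

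In 1064 Btc differed more between replicate numbers than between treatments. Mock libraries of replicates 1, 2 and 3 held 0.739, 3.73 and 3.19 CPM, and the GRP libraries of the same numbers 1.49, 13.8 and 7.1 CPM. The groups overlapped, while within each number GRP stood above mock, by 2.01, 3.71 and 2.23-fold. The log2 fold change was 1.55 ± 0.84 (adjusted p = 0.322), and with replicate numbers as a block it was 1.42 ± 0.22 (adjusted p = 0.000642) and Btc was called. GRP+RC against GRP likewise had an adjusted p of 0.762, and of 0.00967 with the block. In 1181-Grpr Btc was at 0.425 to 1.21 CPM in mock and 0.805 to 1.27 CPM with GRP, which overlapped, and in 1181-Ctrl it had at most 4 counts in the mock and GRP libraries.

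Ereg, the gene of epiregulin, was tested in 1014-Grpr only. Mock libraries held 3, 3 and 5 counts (0.104, 0.0924 and 0.224 CPM), and GRP libraries 25, 45 and 86 counts (1.02, 1.53 and 1.96 CPM). The groups did not overlap, and the log2 fold change was 3.48 ± 0.46 (adjusted p = 0.000164). With GRP+RC it held 5, 10 and 8 counts, below all GRP libraries and above the mock libraries in CPM (log2 fold change against GRP -2.20 ± 0.40, adjusted p = 0.00408, and adjusted p = 0.0665 without replicate 3). In 1014-Ctrl it had 8 and 5 counts in mock and 5, 2 and 3 with GRP. It had at most 2 counts in 1057, 3 in 1064 and 5 in 1181-Grpr, and none in 1181-Ctrl. In the annotation 3.42% of its exon bases are covered by Gm19610 on the other strand, which had at most 2 counts in the mock and GRP libraries of 1014-Grpr.

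The calls differed between the 4 neighbouring ligand genes and between lines, and this difference was not tested. Areg and Btc were called in 1057, Ereg and Btc in 1014-Grpr, and Epgn, the gene of epigen, had at most 8 counts in any library. The protein-coding genes on either side of the cluster were not called with GRP in any line. Mthfd2l, an enzyme of mitochondrial folate metabolism, was at -0.46 ± 0.13 on the log2 scale in 1057 and at -0.08 ± 0.11 in 1014-Grpr, and Parm1 was at 0.32 ± 0.04 and 0.43 ± 0.12.

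**Figure D3:**
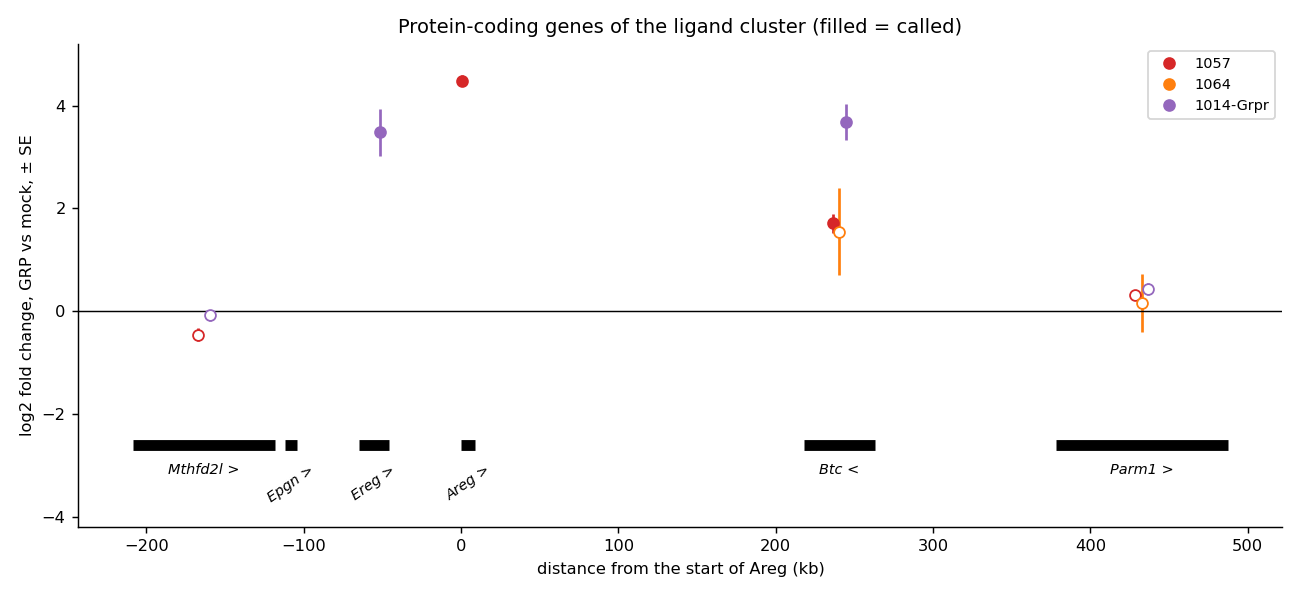
Log2 fold change of GRP against mock with its SE (points, filled where called) for the protein-coding genes of the ligand cluster and its 2 neighbours, by distance in kb from the start of Areg, with gene bodies as black bars and strand as arrows. Genes that did not pass the filter on low counts in a line have no point there. Areg at 4.48 in 1057 and Ereg at 3.48 in 1014-Grpr have no point in the other lines drawn, where they did not pass that filter.

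Tgfa encodes transforming growth factor alpha, also a ligand of Egfr (chromosome 6 of GRCm38, 86195223 to 86275719, plus strand). It was below mock in all libraries with GRP in 1014-Grpr and 1057, and was not called in any line. In 1014-Grpr it held 25.9, 23.2 and 26.1 CPM in mock and 17.1, 14.8 and 13 CPM with GRP. All GRP libraries were below all mock libraries, with a log2 fold change of -0.75 ± 0.12 (adjusted p = 0.000512). With GRP+RC it held 26, 21.3 and 22.2 CPM, above all GRP libraries (0.64 ± 0.12, adjusted p = 0.00394), and 18.7% of the difference was left. In 1057 the groups did not overlap either, at 32.4, 30.8 and 31.1 CPM against 29.8, 28.3 and 27.6 CPM, but the difference was small (log2 fold change -0.14 ± 0.05, adjusted p = 0.023). In 1064 Tgfa held 15.9, 22.6 and 8.65 CPM in mock and 8.88, 11 and 5.54 CPM with GRP, and GRP stood below mock within each replicate number. Its log2 fold change was -0.89 ± 0.35 (adjusted p = 0.167, and 0.00151 with replicate numbers as a block). The log2 fold changes in the other 3 lines lay between -0.13 and -0.02, with adjusted p = 1 and overlapping groups in each, and without replicate 1 they lay between 0.03 and 0.10.

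The 7 ligands together differed in amount and in make-up between mock and GRP. Their TPM summed to 40.8 ± 1.17 in mock 1057 (SD, n = 3) and to 142 ± 2.77 with GRP. In that line Areg made up 8.64% ± 0.774 of the sum in mock and 52.7% ± 1.33 with GRP, while Hbegf went from 49% ± 1.25 to 35.6% ± 0.51. In 1014-Grpr the sum was 27 ± 0.789 TPM in mock and 103 ± 26.7 with GRP. There Hbegf made up 44% ± 3.28 in mock and 78.4% ± 4.65 with GRP, and Tgfa 51.4% ± 3.23 and 8.02% ± 3.4. In 1064 the sum was 17.5 ± 2.84 TPM in mock and 29.4 ± 5.87 with GRP. With GRP+RC the sums were 82.4 ± 0.898 TPM in 1057, 17.7 ± 1.72 in 1064 and 35 ± 1.12 in 1014-Grpr. In the 3 lines without a call the sums of mock and GRP libraries overlapped. These sums count RNA of precursors and were not tested.

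**Figure D4:**
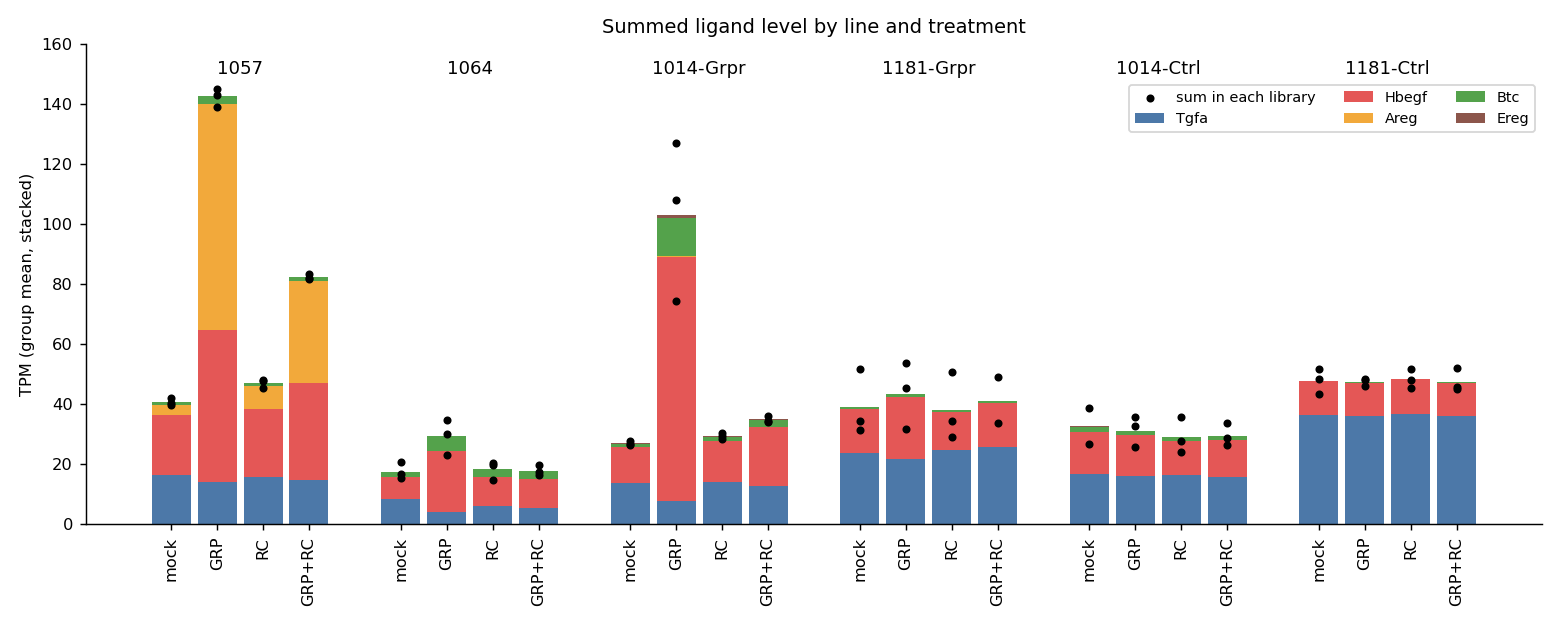
Group means in TPM of Tgfa, Hbegf, Areg, Btc and Ereg, stacked, by line and treatment, with the sum over all 7 ligands in each library as points. The sums reach 139 to 145 TPM in 1057 with GRP, with Areg as the largest share, and 74.4 to 127 TPM in 1014-Grpr, with Hbegf as the largest share.

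Of the receptors, Erbb3 fell in 1057 and 1064 and Erbb2 was not called in any line. Erbb3 (ENSMUSG00000018166, chromosome 10 of GRCm38, 128567523 to 128589652, minus strand) held 183.4, 174.8 and 172.5 CPM in mock 1057 and 58.2, 53.8 and 54.9 CPM with GRP. The groups stood far apart, with a log2 fold change of -1.67 ± 0.04 (adjusted p = 6.64e-16), or 3.18-fold lower. In 1064 it held 334.6, 236.1 and 134 CPM in mock and 83.5, 53.6 and 69.1 CPM with GRP. The groups did not overlap and the log2 fold change was -1.77 ± 0.31 (adjusted p = 0.0113). Without replicate 1 or replicate 2 of 1064 it was -1.59 (adjusted p = 0.124) or -1.60 (adjusted p = 0.214), in fits that did not pair libraries by number. With all replicates and their numbers as a block it was -1.70 ± 0.19 (adjusted p = 0.000133) and was called. In 1014-Grpr, mock libraries at 497.5, 482.4 and 603.5 CPM stood above GRP libraries at 384.2, 296.3 and 440.9 CPM, with a log2 fold change of -0.50 ± 0.15 (adjusted p = 0.0276) that was within the limit of 1.

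With RC added, the mean of Erbb3 lay between those of mock and GRP in 1057, 1064 and 1014-Grpr. In 1057 the GRP+RC libraries held 91.5, 86 and 84 CPM, above all GRP libraries and below all mock libraries, so that 74% of the fall was left (log2 fold change against GRP 0.65 ± 0.04, adjusted p = 3.98e-09, within the limit of 1). RC alone gave 139.9, 129.4 and 133.1 CPM there, below all mock libraries (-0.40 ± 0.04, adjusted p = 8.54e-07). In 1064 the GRP+RC libraries held 180.4, 165.7 and 126 CPM, above all GRP libraries, with 46.7% of the fall left. That difference was at 1.19 ± 0.30 with an adjusted p of 0.207, and was called with replicate numbers as a block (adjusted p = 0.00318). In 1014-Grpr it was at 0.38 ± 0.15 (adjusted p = 0.139), and 27.7% of the fall was left.

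In 1181-Grpr, Erbb3 held 534.6 CPM in mock replicate 1 and 261.8 and 309.6 CPM in the other two, and the GRP libraries of the same numbers held 481.2, 249.4 and 314.7 CPM. The replicate numbers differed more than the treatments, and the log2 fold change was -0.08 ± 0.37 (adjusted p = 1). In 1014-Ctrl and 1181-Ctrl it was -0.08 ± 0.11 and 0.00 ± 0.26.

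Erbb2 (ENSMUSG00000062312, chromosome 11 of GRCm38, 98412470 to 98437716, plus strand) had log2 fold changes with GRP between -0.06 and 0.09 in the 6 lines, with adjusted p between 0.498 and 1. In 1057 it held 11.7, 12.2 and 11.1 CPM in mock and 11.5, 11.3 and 11.4 CPM with GRP, which overlapped. With both receptors in TPM, the ratio of Erbb3 to Erbb2 in 1057 went from 13.1 ± 0.637 in mock to 4.23 ± 0.14 with GRP, and in 1064 from 6.99 ± 2.33 to 2.14 ± 0.391. Egfr (ENSMUSG00000020122, chromosome 11, 16752203 to 16918158, plus strand) had at most 12 counts in any library. In 1057 it had 1 count in each mock library and 6, 5 and 4 counts with GRP. The groups did not overlap, but the gene did not pass the filter on low counts and the difference was not tested. Erbb4, the remaining receptor of the family, had at most 6 counts, and Nrg1 at most 3.

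**Figure D5:**
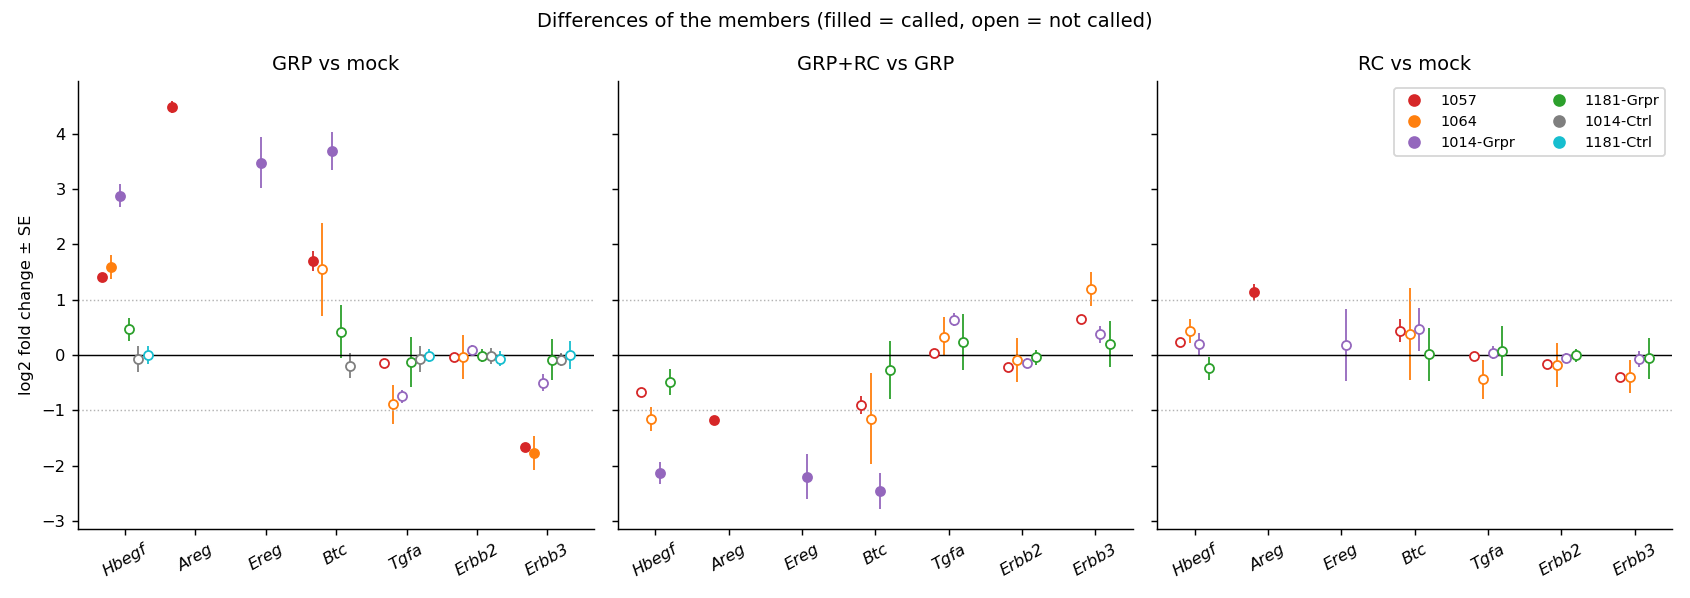
Log2 fold changes with their SE for the 7 members tested in at least 1 line, in GRP against mock (6 lines), GRP+RC against GRP and RC against mock (4 GRPR-expressing lines each). Filled points were called and dotted lines mark the limit of 1. Hbegf, Areg, Ereg and Btc lie above 0 with GRP and below 0 when RC is added in 1057 and 1014-Grpr, where each was tested, and Erbb3 shows the opposite signs.

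Counted over all members tested, GRP+RC against GRP gave 1 call in 1057 (Areg, lower), where 1.02% of all genes were called, and 3 in 1014-Grpr (Hbegf, Ereg and Btc, lower), where 1.73% were called. In 1064 no member was called, with 0.0145% of genes called (2 genes by edgeR, 1376 at an unadjusted p under 0.05). There DESeq2 called 2 members, Hbegf and Erbb3, among 64 genes, and the replicate block called 3, Hbegf, Btc and Erbb3, among 266. In 1181-Grpr no member and no gene was called (0%, 119 genes at an unadjusted p under 0.05, DESeq2 0), and with the block 6 genes were called, none of them a member. RC against mock gave 1 member, Areg, in 1057, where 0.888% of genes were called. It gave no call in 1064, 1014-Grpr or 1181-Grpr (0% in each by edgeR and 0 genes by DESeq2, with 129, 161 and 72 genes at an unadjusted p under 0.05), though in 1014-Grpr 1 gene, not a member, was called with replicate numbers as a block. GRP against mock and GRP+RC against GRP share the GRP libraries, so a library that is high with GRP enters both.

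The 2 versions of 1014 and of 1181 allow the difference between the GRP effects of the Grpr and Ctrl versions to be tested itself. The versions of 1181 also differed in genes other than Grpr. Mean Dct was 6000 CPM in 1181-Grpr and 273 CPM in 1181-Ctrl, and mean Tyrp1 was 1620 and 2.18 CPM. Xist lay at 205 to 272 CPM and at no more than 0.71 CPM. The part of these differences in the result for 1181 was not tested. In 1014, 3 of 6 members tested were called, where 2.99% of all genes were called. Hbegf rose by 2.95 ± 0.33 more on the log2 scale in 1014-Grpr than in 1014-Ctrl (adjusted p = 3.37e-06), Btc by 3.88 ± 0.46 (adjusted p = 6.45e-06) and Ereg by 4.52 ± 0.75 (adjusted p = 0.000273). Ereg had 5 to 8 counts in the mock libraries of 1014-Ctrl (n = 2) and 2 to 5 with GRP. This fall near the floor adds to the Ereg difference, and the GRP effect in 1014-Grpr alone was 3.48. Ereg also passed the filter through the GRP libraries of 1014-Grpr, which favours a difference, and DESeq2 gave it no adjusted p. With the 2 libraries kept as labelled the differences were 3.11 for Hbegf (adjusted p = 2.41e-06), 3.70 for Btc (adjusted p = 9.1e-06) and 4.16 for Ereg (adjusted p = 0.000876). Tgfa was at -0.67 ± 0.27 (adjusted p = 0.0934) and Erbb3 at -0.40 ± 0.21 (adjusted p = 0.205), and with replicate numbers as a block both passed the p threshold (4.39e-06 and 5.29e-07) but not the limit of 1. Grpr itself went from 110 to 143 CPM in mock to 409 to 638 CPM with GRP in 1014-Grpr, and the part of this in the result was not tested. In 1181 none of 5 members and no gene at all was called (0%, 87 genes at an unadjusted p under 0.05, DESeq2 0). Hbegf was at 0.46 ± 0.27 (adjusted p = 1).

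Other genes of the pathway were read from a list of 38, of which 31 to 33 passed the filter in a line. With GRP, 4 were called higher and 1 lower of 33 in 1057, 3 higher and 1 lower of 31 in 1064, and 4 higher and none lower of 32 in 1014-Grpr, beside the 6.46%, 2.32% and 4.01% of all genes called. Their median log2 changes were 0.03, 0.13 and 0.17. None was called in the other 3 lines. Without replicate 1 or replicate 2 of 1064, none of its 4 calls was made. For GRP+RC against GRP, 1 gene of the list was called lower in 1014-Grpr, where 1.73% of all genes were called. None was called in 1057 or 1064.

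Among the genes of ligand release, Rhbdf2 (iRhom2, which brings the sheddase ADAM17 to the cell surface) rose in 1064 from 34 to 39.4 CPM in mock to 76.9 to 86.7 CPM with GRP (log2 fold change 1.18 ± 0.18, adjusted p = 0.0075). It rose in 1014-Grpr as well (1.09 ± 0.18, adjusted p = 0.000753) and was at 0.56 ± 0.06 in 1057 (adjusted p = 1.22e-07), within the limit of 1. With GRP+RC mean Rhbdf2 was 52.8 CPM in 1064 and 15.6 CPM in 1014-Grpr, beside 82.1 and 26.3 CPM with GRP. In 1057 the mean was not lower with RC added, at 24.4 CPM beside 23 CPM with GRP. There it was 19.9 CPM with RC alone and 15.6 CPM in mock. Adam19, a metalloproteinase, was called in 1014-Grpr (3.05 ± 0.91, adjusted p = 0.0254), where it rested at 1 to 14 counts and reached 25 to 130 with GRP. Without replicate 1 its value there was 3.19 (adjusted p = 0.164). Nrg2, a neuregulin that binds Erbb3, fell in 1064 from 4.1 to 10.1 CPM in mock to 1.3 to 2.52 CPM with GRP (-1.82 ± 0.33, adjusted p = 0.0134), was at -0.99 ± 0.17 in 1014-Grpr (adjusted p = 0.000898) and at 0.00 ± 0.10 in 1057.

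Among adaptors, Eps8, a substrate of Egfr that acts on actin, rose in 1057 from 104.7 to 117 CPM to 341 to 351 CPM (1.66 ± 0.04, adjusted p = 1.44e-16) and in 1064 (1.30 ± 0.28, adjusted p = 0.0241). The docking proteins Gab1 and Gab2 went opposite ways in 1057, at -1.30 ± 0.05 (adjusted p = 1.12e-13) and 1.09 ± 0.04 (adjusted p = 2.79e-13). Among inhibitors, Spry2, a feedback inhibitor of receptor tyrosine kinase signalling, was the one gene of the list called in all of 1057, 1064 and 1014-Grpr, at 1.06 ± 0.03, 1.49 ± 0.19 and 2.02 ± 0.17 (adjusted p = 3.51e-15, 0.00413 and 7.09e-06). Lrig1, which promotes the removal of ERBB receptors, rose in 1057 (1.57 ± 0.09, adjusted p = 6.13e-11), and Socs5, which lowers Egfr signalling, rose in 1014-Grpr (1.05 ± 0.09, adjusted p = 8.06e-06), though without replicate 2 or 3 it was at 0.99 and 0.98, within the limit of 1. Errfi1, which inhibits Egfr, was at 1.51 ± 0.42 in 1064 (adjusted p = 0.0618) and was called there only with the replicate block (adjusted p = 0.00222).

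The genes whose pattern was most like that of a called member were found by the correlation of log2 CPM, after the mock mean of the line was subtracted, over 70 libraries that share lines and treatments. For Hbegf these were Nes (Pearson's r = 0.915), Zfp703 (0.912) and Itga5 (0.911). For Areg they were Ets2 (0.879), Zfand2a (0.869) and Syne1 (0.866), for Btc Plpp1 (0.885), Hmga1 (0.874) and Atf6 (0.862), and for Ereg Arid5b (0.722), Brd2 (0.689) and Zfp703 (0.687). For Erbb3 they were Ss18 (0.942), Zfp740 (0.923) and Brd3 (0.917). Among the members themselves, Hbegf and Btc were most alike, at 0.776, and Areg and Ereg were at 0.206. These values describe 70 libraries of 6 lines and were not tested. Areg had no count in 54 of all 72 libraries and Ereg in 32. Their values therefore rest mostly on the lines where they were detected and show no likeness across lines.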

How the data were processed

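RNA was measured in 72 libraries by strand-specific, polyA-selected RNA-seq. Per the labels and the paper, reads were aligned with STAR to GRCm38, and the authors deposited unnormalized read counts for each gene. TPM values were deposited as well, and those of 1057 use a comma as the decimal sign, read here as a point. Positions and exon overlaps are from a later GENCODE release (GRCm38) than the paper names. A table of gene names gave symbols for 99.6% of the 50600 gene identifiers.

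Groups and replicate numbers were taken from the labels. Tests used edgeR 4.0.16 (filterByExpr, TMM, quasi-likelihood test) in R 4.3.3, with 1 fit per line and 4 treatments, and 1 fit of both versions for 1014 and for 1181. SE was taken from the log2 fold change and its F statistic. CPM were normalized by TMM within a line, except those of Grpr ranges, Xist, Ddx3y and markers in the paragraph on depth, which use library totals. The 2 libraries against their labels were left out. The design named these 2 and the test, and alternatives were DESeq2 1.42.0, RLE factors, no filter, the replicate block, each replicate left out and adjusted p alone. For the correlations a prior count of 1 was used. Floors cover counting error only. All 72 pairs of replicates differed by more than sampling noise (smallest chi-square per degree of freedom 2.56). The fits were also run on simulated counts. These were drawn without any link between same-numbered libraries, so they cannot judge fits without the replicate block where such links exist.

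Same-numbered mock and GRP libraries deviated together from their group means in several lines. Their r lay between 0.561 and 0.701 in 1064 and between 0.424 and 0.491 in 1014-Grpr. It lay between 0.457 and 0.698 in 1181-Grpr and between 0.732 and 0.836 in 1181-Ctrl, but at 0.00693 to 0.0457 in 1057. The main fits did not pair libraries by number in any line. Only the alternative with replicate numbers as a block used this pairing. In 1014-Ctrl only 2 such pairs were left. The pairing comes from the numbers and these values alone.

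The members, gene lists and rules were chosen with earlier results of these data known. Named genes were all members, genes of the pathway list called with GRP in at least 1 line, neighbours of the chromosome 5 cluster, the 3 genes most like each called member, and label checks. Errfi1, Erbb4, Egf, Cd68, Cdh1, Ednrb, Tyrp1 and Dct were named after their values were seen.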

Additional observations from a re-analysis of the deposited data

Results flagged for a closer look

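For 3 genes the effect of GRP differed between the receptor-positive and receptor-negative versions of 1014, by the test of that difference (edgeR, 8 groups in 1 fit). In the same test 2.99% of all genes were called. The differences were 3.88 ± 0.46 on the log2 scale for Btc (adjusted p = 6.45e-06), 4.52 ± 0.75 for Ereg (adjusted p = 0.000273) and 2.95 ± 0.33 for Hbegf (adjusted p = 3.37e-06). All GRP libraries of 1014-Grpr stood above all of its mock libraries for each of the 3 genes. The share of all genes with such groups was not counted. With GRP in 1014-Grpr, 5482 of 13730 genes tested had an unadjusted p under 0.05 (edgeR). The separation is therefore not shown to be particular to these 3 genes. Part of the Ereg difference came from 1014-Ctrl, which had 5 to 8 counts in mock (n = 2) and 2 to 5 with GRP. Ereg passed the filter on low counts through the GRP libraries of 1014-Grpr, which favours a difference, and DESeq2 gave it no adjusted p. Chance outliers within groups were not looked for, since groups hold at most 3 libraries.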

How the results depend on the processing

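The counts of members called with GRP kept within 1.5 times their value under DESeq2, RLE factors, no filter, the replicate block and the 2 libraries kept as labelled, in all 6 lines. Each replicate left out in turn gave 0 to 2 members in 1064 (2 with all replicates) for GRP against mock, 1 to 2 in 1057 (1) for GRP+RC against GRP and 0 to 1 in 1057 (1) for RC against mock. Where this left 1 library in a group (1014-Ctrl mock, 1181-Grpr GRP+RC), it was assumed to vary like the other groups. For GRP+RC against GRP in 1064 (0 members), DESeq2 called 2 and the replicate block 3. Adjusted p alone called 5 members for GRP against mock in 1014-Grpr (3 with the limit of 1), 5 for GRP+RC against GRP in 1057 (1) and 3 for RC against mock in 1057 (1). With the replicate block Btc was also called with GRP in 1064 (3 members), and elsewhere the block changed no call of a member for GRP against mock. In CPM instead of TPM, resting Erbb2 in 1181-Ctrl over 1057 was 3.88-fold (5.02-fold in TPM) and Erbb3 in 1014-Ctrl over 1057 was 3.11-fold (3.79-fold). Over all genes, calls in 1064 with GRP were 320, 499 with DESeq2, 900 with the replicate block and 0 without replicate 1 or 2, and for GRP+RC against GRP in 1064 they were 2, 64 with DESeq2, 12 with no filter and 266 with the block. For GRP+RC against GRP, DESeq2 called 62 genes in 1057 (145 by edgeR), and 1014-Grpr had 136 without replicate 2 (238). The difference of GRP effects in 1014 had 430 calls, and 715 with the 2 libraries kept as labelled and the block. The alternatives for single genes in GRP+RC against GRP and RC against mock, and those for the pathway genes, were added after seeing the data. The causes were not tested. Depth limits Epgn, Nrg1, Egfr, and Areg and Ereg outside 1 line, which had at most 12 counts in a library and were not tested there with the filter. Without replicate 1, Tgfa with GRP turned from below to above mock in 1181-Grpr (0.10), 1014-Ctrl (0.03) and 1181-Ctrl (0.05), none of them called. With RC alone in 1014-Grpr, 1 gene was called with the replicate block and 1 with no filter (0).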
